A study of Mus musculus with 6 samples.

Results

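Here 10 genes that move calcium through the sarcoplasmic reticulum of heart muscle were followed in cultured neonatal mouse cardiomyocytes with and without added α-ketoglutarate (αKG). The genes were picked by their symbol in the RNA-seq table, and all 10 of them were found among its 20066 genes. They were the release genes Ryr2, Trdn and Jph2, the uptake genes Atp2a2, Pln and Sln, the storage genes Casq1, Casq2 and Hrc, and the exchanger Slc8a1.

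With each heartbeat, calcium that enters a cardiomyocyte through surface channels opens the ryanodine receptor and releases a much larger store from the sarcoplasmic reticulum, which makes the sarcomeres contract. The cell relaxes when the calcium pump SERCA returns the ion to the store and the sodium-calcium exchanger carries the rest out. Heart muscle and fast skeletal muscle run this cycle with different family members, among them Casq2 in the heart and Casq1 in skeletal muscle.

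The cells came from hearts of C57BL/6 pups at postnatal day 0 to 1. In the study's methods they were plated after dissociation of the hearts and grown overnight before chemicals were added, and for neonatal cells 1 sample was 1 isolation from pooled hearts. The DMSO group (3 libraries) received the solvent and the αKG group (3 libraries) received cell-permeable αKG, labelled 100 µM, both for 96 h, with no other genotype or agent. The study's methods give another concentration for such cultures, so the dose is given as labelled. The labels do not say whether the replicates were separate isolations, so p-values measure the spread between these samples, which may be technical. Whether calcium genes differ after αKG bears on how far the cultured cells keep a differentiated state, since the series is titled around maturation and proliferation.

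Values are the authors' normalized read counts, that is, reads per gene divided by a size factor of each library and rounded. The libraries held about 3726069 to 4427908 estimated reads each, so a gene near 10 is read from about 10 reads. Cardiomyocyte markers were high in all libraries, with 12 of 12 listed and a summed value of 72690 to 74884 in DMSO and 76275 to 106118 in αKG. Ttn, the gene of titin, made up most of that sum, and the other 11 summed to 20668 to 21121 in DMSO and 20706 to 22570 in αKG. In this bulk RNA, fewer cells of a type and less RNA per cell cannot be told apart. αKG replicate 3 stood apart from the other αKG libraries and lay nearer to DMSO for many genes, so the fold changes of the 10 genes, and of the partners and markers given with a test, are shown with and without it. Fold changes are differences of mean log2(value + 1), αKG minus DMSO, from limma fitted over all genes, with Benjamini-Hochberg adjusted p-values and a threshold of 0.05.

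Of the 10 genes, 1 passed the adjusted threshold: Casq1, which was higher in αKG. Of all genes 3.78% passed, 2.83% in the upward and 0.952% in the downward direction. At an unadjusted p under 0.05 there were 5 of the 10 (Ryr2, Slc8a1, Hrc, Pln and Casq1) beside 28.1% of all genes. The groups did not overlap for the same 5 genes, beside 28.3% of all genes. The median log2 fold change of the 10 was 0.11, against 0.04 over all genes. Without αKG replicate 3 the adjusted threshold was passed by 7 of the 10, beside 37.2% of all genes. These were Ryr2, Slc8a1, Atp2a2, Hrc and Casq1 upward and Pln and Jph2 downward. Without any one of the other 5 libraries, none of the 10 passed in limma, with 1 to 4 of them at an unadjusted p under 0.05. Few of all 20066 genes passed there: 152, 3 and 4 without DMSO replicates 1, 2 and 3, and 0 without αKG replicate 1 or 2. Between 3219 and 3796 of all genes were then at an unadjusted p under 0.05.

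**Figure D1:**
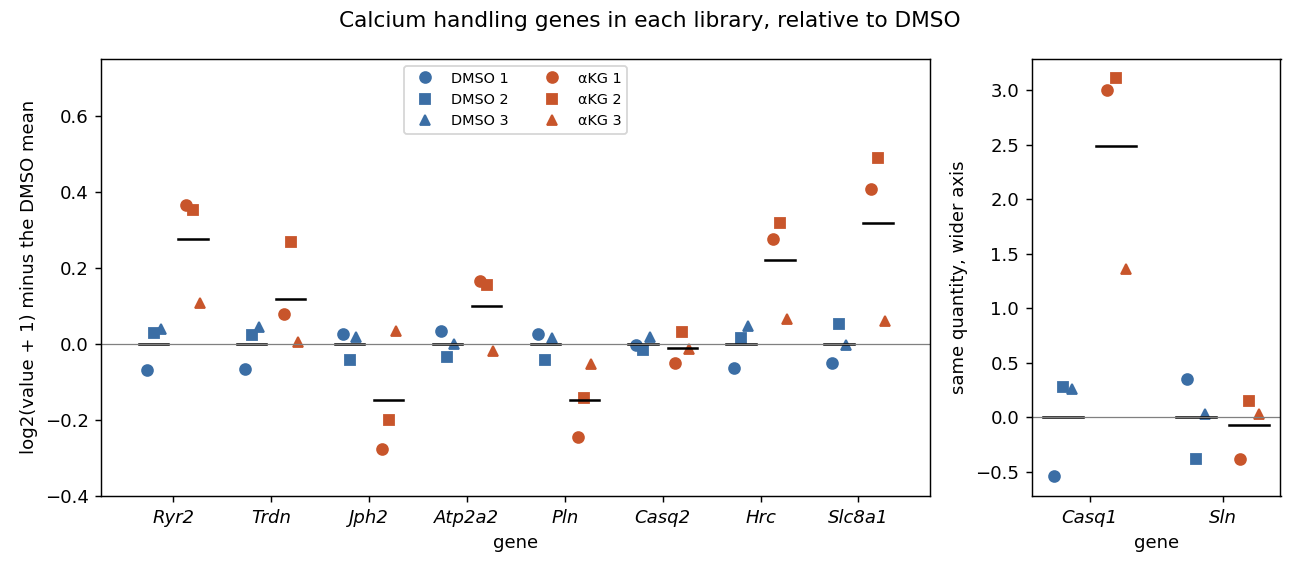
Each point is 1 library (blue DMSO, orange αKG, the shape gives the replicate number), the vertical axis is log2(value + 1) minus the mean of the DMSO libraries, and black bars are group means; Casq1 and Sln have a wider axis. Casq1 lies 3.0, 3.11 and 1.36 above the DMSO mean in αKG replicates 1 to 3. αKG replicate 3 is the αKG point nearest to the DMSO mean for every gene shown.

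Calsequestrins bind calcium inside the sarcoplasmic reticulum with long runs of acidic residues at the end of the protein. Casq1 (ENSMUSG00000007122) lies on the minus strand of chromosome 1 at 172209894-172219868, and Casq2 (ENSMUSG00000027861) on the plus strand of chromosome 3 at 102086415-102146514 (mm10, GRCm38). The last 40 coding codons of both are shown because they carry this calcium-binding feature in both genes and because they show how far the DNA of the pair differs. Capitals mark codons for aspartate or glutamate, and the letters were read from GENCODE M21 transcripts on the coding strand.
Casq1, exon 11, chr1:172210348-172210467: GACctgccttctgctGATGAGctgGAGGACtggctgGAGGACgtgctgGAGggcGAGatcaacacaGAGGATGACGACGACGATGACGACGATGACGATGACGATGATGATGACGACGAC
Casq2, exon 12, chr3:102145308-102145427: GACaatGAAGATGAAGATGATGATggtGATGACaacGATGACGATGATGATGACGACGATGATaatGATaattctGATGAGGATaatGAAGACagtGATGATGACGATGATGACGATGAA
Acidic codons made up 27 of the 40 in Casq1 (67.5%) and 32 of the 40 in Casq2 (80%), compared with 28.4% and 26.6% of the whole coding sequences. Aligned over 1167 coding bases the genes were 69.8% identical, and their longest identical run was 15 bases. No 75-base window of the Casq1 or Casq2 transcript, the length of a read in the study's methods, occurred in a GENCODE M21 transcript of another gene. A full-length read could therefore be placed on 1 of the pair.

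Casq1 was at 38, 68 and 67 in DMSO replicates 1 to 3 and at 454, 488 and 145 in αKG replicates 1 to 3. All αKG libraries lay above all DMSO libraries, and αKG replicate 3 lay between the DMSO libraries and the other αKG libraries. The means were 57.7 ± 17 (SD, n = 3) and 362.3 ± 189 (SD, n = 3), which is 6.28-fold. The log2 fold change was 2.49 ± 0.42 (SE; limma adjusted p = 0.0242, 95% interval from 1.56 to 3.43). Without αKG replicate 3 it was 3.05 ± 0.25, with a limma adjusted p of 0.000799. The call was lost when another library was left out: the limma adjusted p was 0.11, 0.222 and 0.217 without DMSO replicates 1, 2 and 3, and 0.238 and 0.255 without αKG replicates 1 and 2. In those settings 0 to 152 of all genes passed. Over all 17 alternative settings the log2 fold change stayed between 2.18 and 3.05, with 8 of 17 past the threshold and limma adjusted p-values from 0.000799 to 0.255.

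Casq2, the cardiac paralog, was at 1486, 1474 and 1509 in DMSO and at 1439, 1523 and 1476 in αKG. The groups overlapped. Its log2 fold change was -0.01 ± 0.05 (SE; limma adjusted p = 0.914), with a 95% interval from -0.13 to 0.11, and -0.01 (limma adjusted p = 0.877) without αKG replicate 3. Casq2 thus stayed the higher of the pair in all 6 libraries, being 39.1, 21.7 and 22.5 times the Casq1 value in DMSO and 3.17, 3.12 and 10.2 times in αKG.

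Levels of different genes were compared per kilobase of all annotated exons, a measure that depends on the length used. Casq1 made up 3.46%, 6.08% and 5.86% of the summed calsequestrins per kilobase in DMSO. In αKG replicates 1, 2 and 3 it made up 30.7%, 31% and 12.1%. The lowest αKG share was above the highest DMSO share, and the group means were 5.13% ± 1.45 and 24.6% ± 10.8 (SD, n = 3 each). Within libraries, the log2 ratio of Casq1 to Casq2 was -5.25, -4.42 and -4.47 in DMSO and -1.66, -1.64 and -3.34 in αKG. The ratio was higher in αKG by 2.50 without overlap, at an exact two-sided permutation p of 0.1, the smallest that 3 against 3 libraries can give, and 0.2 after adjustment over the 6 ratios compared. The difference was 3.06 without αKG replicate 3.

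**Figure D2:**
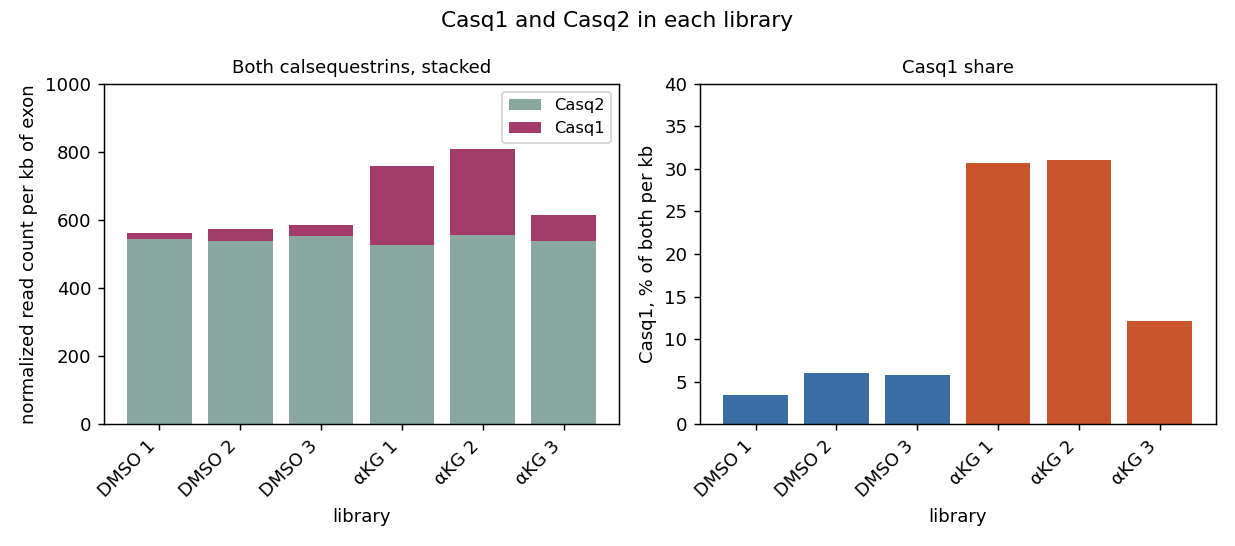
Left, normalized read count per kb of exon of Casq2 and Casq1, stacked, in each library; right, the Casq1 part as a percentage of both. The Casq2 bar stays between 526 and 557 in all 6 libraries, while the Casq1 share runs from 3.46% to 6.08% in DMSO and from 12.1% to 31% in αKG.

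Markers of skeletal muscle cells were checked because Casq1 is the form of fast skeletal muscle. Of 16 such markers 10 were in the table, and the myogenic factors Myod1, Myog, Myf5, Myf6 and Pax7 had no row. The summed value of the 10 was 739 to 937 in DMSO and 867 to 944 in αKG, most of it Ckm, a creatine kinase gene that heart muscle also expresses, at 645 to 810 in DMSO and 606 to 802 in αKG. The other 9 summed to 127, 94 and 113 in DMSO and to 261, 279 and 142 in αKG, so without Ckm, left out after its values were seen, the groups did not overlap. In the list 7 of the 10 had a positive log2 fold change, with a median of 0.36. None of the 10 passed the adjusted threshold in limma with all libraries, and 2 were at an unadjusted p under 0.05, beside 28.1% of all genes. Without αKG replicate 3 there were 4 past the adjusted threshold, all upward (Neb, Tnnt3, Myh3 and Myh8), beside 37.2% of all genes. The 2 with all libraries were Neb, a giant thin filament protein, and Myh8, the perinatal myosin. Neb was at 30, 28 and 37 in DMSO and at 116, 125 and 38 in αKG (log2 fold change 1.36 ± 0.40, SE, limma adjusted p = 0.0783, and 0.000816 without αKG replicate 3). Myh8 was at 63, 28 and 30 in DMSO and at 87, 81 and 74 in αKG (1.08 ± 0.29, SE, limma adjusted p = 0.064, and 0.0433 without αKG replicate 3). Both lay above DMSO in every αKG library, Neb in αKG replicate 3 only just. The fast troponins went different ways. Tnnt3 was at 4, 2 and 4 in DMSO and at 18, 21 and 2 in αKG (1.35 ± 0.71, SE, limma adjusted p = 0.242, and 0.00515 without αKG replicate 3), Tnni2 was at 16, 13 and 18 in DMSO and at 9, 10 and 13 in αKG (limma adjusted p = 0.307, and 0.0927 without αKG replicate 3), and Tnnc2 did not exceed 2 in any library. Myh3, the embryonic myosin, was at 1, 4 and 3 in DMSO and at 9, 9 and 3 in αKG (1.11 ± 0.54, SE, limma adjusted p = 0.215, and 0.0444 without αKG replicate 3). The part of such cells in the Casq1 values was not tested.

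The other genes in the list of skeletal-type calcium handling were low or did not differ past the threshold. Sypl2, a triad membrane gene of skeletal muscle kept in the store-operated entry list, did rise past it (1.75 ± 0.22, SE, limma adjusted p = 0.00778). Ryr1, the skeletal ryanodine receptor, was at 0, 1 and 1 in DMSO and at 1, 2 and 1 in αKG. Atp2a1, the fast-muscle SERCA pump, and Pvalb, a cytosolic calcium buffer, had no row in the table. Of the 8 skeletal-type genes listed, which include Casq1 itself, Casq1 was the single one past the threshold. Of all genes 2.83% were higher and 0.952% lower past it. Tmem38a, which encodes a counter-ion channel of the sarcoplasmic reticulum and had the highest mean of that list, was at 646, 601 and 624 in DMSO and at 618, 644 and 593 in αKG.

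Markers of other cells also differed between the libraries. Fibroblast markers, 10 of 10 listed, summed to 6108 to 6305 in DMSO and to 11975, 11513 and 5902 in αKG replicates 1 to 3. Epicardial markers, 9 of 9 listed, summed to 478 to 515 in DMSO and to 1207, 1144 and 456 in αKG. Endothelial markers, 10 of 10 listed, summed to 2286 to 2394 in DMSO and to 1568 to 1710 in αKG, and 8 of the 10 fell past the threshold, beside 0.952% of all genes. Atrial markers, 6 of 6 listed, summed to 1056 to 1144 and 1120 to 1528, and ventricular markers, 5 of 5, to 3890 to 4032 and 3197 to 3781. Conduction cell markers, 6 of 6, summed to 902 to 1062 and 604 to 881, and smooth muscle and pericyte markers, 9 of 9, to 3529 to 3594 and 3331 to 3686. Past the threshold 1 of 5 ventricular and 2 of 6 conduction markers fell, beside 0.952% of all genes. Of the 9 smooth muscle and pericyte markers 1 rose, beside 2.83%. None of these lists was at 0, and their part in the calcium gene values was not tested.

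The stretches just upstream of both calsequestrin genes are given since 1 of the pair differed between the groups and the other did not. Each runs over the 250 bases before the RefSeq start (GRCm38.p6), read 5′ to 3′ on the strand of the gene, and capitals mark matches to the E-box CANNTG, the TATA box TATAAA, the MEF2 motif or the CArG box, searched on both strands.
Casq1, minus strand, chr1:172219896-172220145: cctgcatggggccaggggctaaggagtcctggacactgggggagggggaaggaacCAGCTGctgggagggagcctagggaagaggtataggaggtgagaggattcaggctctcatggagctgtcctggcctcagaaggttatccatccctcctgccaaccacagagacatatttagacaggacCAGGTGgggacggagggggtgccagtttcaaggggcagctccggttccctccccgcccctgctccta
Casq2, plus strand, chr3:102086165-102086414: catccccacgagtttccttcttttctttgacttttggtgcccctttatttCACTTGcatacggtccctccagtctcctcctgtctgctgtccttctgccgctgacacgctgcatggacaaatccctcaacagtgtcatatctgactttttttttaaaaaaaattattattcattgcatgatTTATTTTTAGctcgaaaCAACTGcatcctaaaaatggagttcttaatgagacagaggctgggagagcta
The Casq1 stretch held 2 E-boxes, 195 and 67 bases before the start, and no match to the other motifs. In Casq2 there were also 2 E-boxes, 200 and 52 bases before the start, and 1 MEF2 match 69 bases before it, and none of these overlapped. Among 32817 mouse promoters of the same length, 66.2% held an E-box, 31.8% held at least 2, 2.92% held a MEF2 match, 12.4% a TATAAA and 1.47% a CArG box. These are matches of letters and say nothing on whether a factor binds.

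Ryr2 encodes the cardiac ryanodine receptor, the channel through which the store is released. It was at 8448, 9026 and 9091 in DMSO and at 11406, 11297 and 9528 in αKG. Every αKG library was above every DMSO library, with αKG replicate 3 closest to DMSO. Its log2 fold change was 0.27 ± 0.07 (SE; limma adjusted p = 0.0567; 95% interval 0.12 to 0.43), and without αKG replicate 3 it was 0.36 ± 0.04 with a limma adjusted p of 0.00133. The sign depended on the scaling. Quantile normalization gave -0.12, and a correction of each library for the GC content and length of genes gave 0.008.

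Trdn encodes triadin, which ties the ryanodine receptor to calsequestrin, and Jph2 encodes junctophilin 2, which holds the sarcoplasmic reticulum against the surface membrane. Trdn was at 1410, 1501 and 1522 in DMSO and at 1560, 1777 and 1483 in αKG. The groups overlapped because αKG replicate 3 was within the DMSO range. The log2 fold change was 0.12 ± 0.07 (SE; limma adjusted p = 0.326), and 0.17 with a limma adjusted p of 0.0773 without αKG replicate 3. With the correction for GC content and length, Trdn fell by 0.39 (limma adjusted p = 0.0423), so its direction depended on this correction.

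Jph2 was at 1297, 1237 and 1291 in DMSO and at 1053, 1109 and 1305 in αKG. Here αKG replicate 3 was the highest library of all and the other αKG libraries were the lowest. The change was -0.15 ± 0.08 on the log2 scale (SE; limma adjusted p = 0.263), and became -0.24 with a limma adjusted p of 0.0076 without αKG replicate 3.

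Atp2a2 encodes the cardiac SERCA pump, which refills the store. Its values were 3832, 3659 and 3747 in DMSO and 4202, 4172 and 3698 in αKG. αKG replicates 1 and 2 were above all DMSO libraries and αKG replicate 3 was within their range. The log2 fold change was 0.10 ± 0.06 (SE; limma adjusted p = 0.286) with all libraries, 0.16 with a limma adjusted p of 0.00882 without αKG replicate 3, and -0.08 under quantile normalization. Of the windows of its transcript, 2.43% also occurred in another gene, Gm30970.

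Pln encodes phospholamban, the small membrane protein that slows SERCA until it is phosphorylated. It was at 2012, 1917 and 1997 in DMSO and at 1668, 1790 and 1904 in αKG. All αKG libraries were below all DMSO libraries and αKG replicate 3 was again nearest to DMSO. The log2 fold change was -0.15 ± 0.06 (SE; limma adjusted p = 0.161), -0.19 with a limma adjusted p of 0.0166 without αKG replicate 3, and -0.50 with a limma adjusted p of 0.039 after the GC and length correction. Pln exons overlap those of Cep85l and Gm47644 on the other strand, and whether the authors counted by strand is not stated in the sources used here. Cep85l was at 327, 304 and 303 in DMSO and at 358, 402 and 331 in αKG, the opposite direction to Pln.

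Set against its pump, Pln was lower in αKG. The log2 ratio of Pln to Atp2a2 was -0.93, -0.93 and -0.91 in DMSO and -1.33, -1.22 and -0.96 in αKG. The groups did not overlap, and the difference was -0.25 at an exact two-sided permutation p of 0.1, adjusted 0.2. It kept its sign under all alternatives run for it, from -0.54 after the GC and length correction to -0.14 under quantile normalization, and was -0.17 without αKG replicate 1 and -0.35 without αKG replicate 3.

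Sln encodes sarcolipin, a SERCA inhibitor found in atria and skeletal muscle. It was barely read, at 14, 8 and 11 in DMSO and 8, 12 and 11 in αKG. The groups overlapped fully. Its log2 fold change was -0.07 ± 0.36 (SE; limma adjusted p = 0.914), and the 95% interval from -0.87 to 0.73 leaves room for a change of either sign at this depth. It was -0.12 (limma adjusted p = 0.811) without αKG replicate 3. Strit1, which encodes the SERCA activator DWORF, had no row under that symbol in the table.

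Hrc encodes a histidine-rich calcium-binding protein of the store that touches both triadin and SERCA. It was at 804, 850 and 868 in DMSO and at 1017, 1048 and 879 in αKG. Every αKG library was above every DMSO library, although αKG replicate 3 was close to the highest DMSO library. Its log2 fold change was 0.22 ± 0.08 (SE; limma adjusted p = 0.119), and 0.30 with a limma adjusted p of 0.00517 without αKG replicate 3.

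Slc8a1 encodes the sodium-calcium exchanger of the surface membrane. It was at 5103, 5470 and 5269 in DMSO and at 7001, 7401 and 5509 in αKG. The αKG libraries were higher without overlap, αKG replicate 3 again being nearest to DMSO. The log2 fold change was 0.32 ± 0.10 (SE; limma adjusted p = 0.0815), 0.45 with a limma adjusted p of 0.000958 without αKG replicate 3, and -0.07 after the GC and length correction. With that correction 6.17% of all genes passed the threshold, as did 3 of the 10 described here, Casq1 upward and Pln and Trdn downward.

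The release channel and the exchanger were also set against the pump. Ryr2 relative to Atp2a2 was 1.14, 1.30 and 1.28 on the log2 scale in DMSO and 1.44, 1.44 and 1.37 in αKG, without overlap and with a difference of 0.17 (exact two-sided permutation p = 0.1, adjusted 0.2), and 0.20 without αKG replicate 3. Its sign turned under quantile normalization (-0.04) and the GC and length correction (-0.03). Slc8a1 relative to Atp2a2 overlapped between groups, with a difference of 0.22 (exact two-sided permutation p = 0.2, adjusted 0.3) that was 0.29 without αKG replicate 3, as did Sln relative to Atp2a2 and to Pln.

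**Figure D3:**
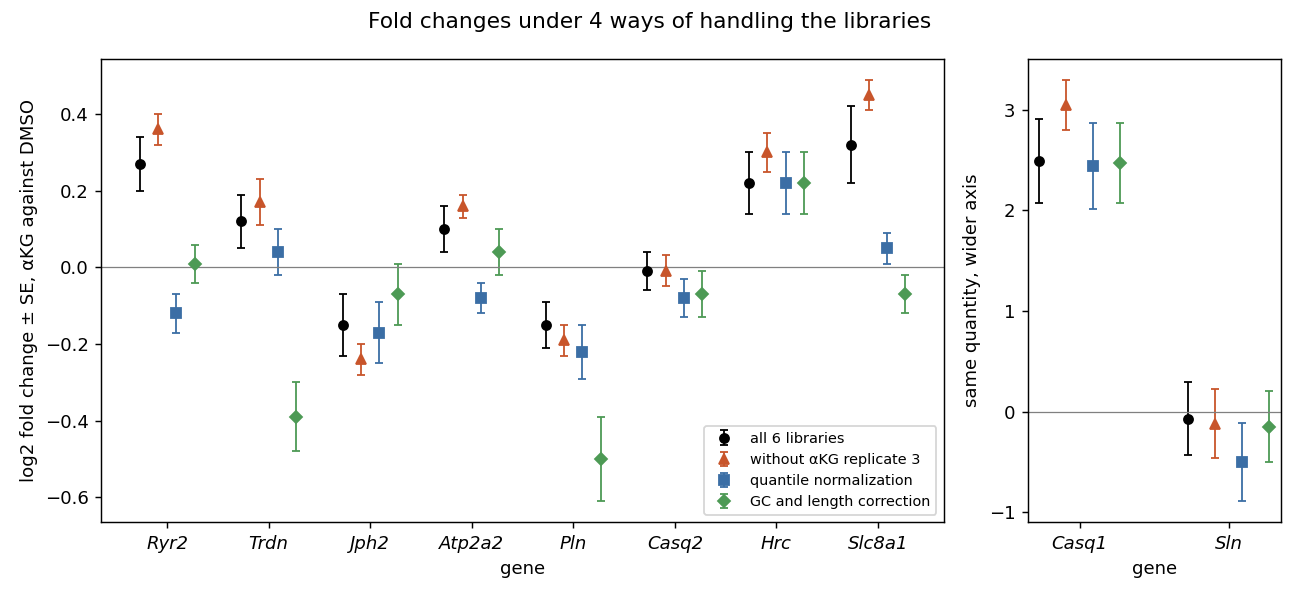
Log2 fold change of each gene with its SE, from all 6 libraries (black), without αKG replicate 3 (orange), after quantile normalization (blue) and after correction for GC content and length (green). Casq1 lies between 2.44 and 3.05 in all 4, whereas Ryr2 runs from -0.12 to 0.36 and Trdn from -0.39 to 0.17.

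Relative to the mean of 12 cardiomyocyte markers in the same library, the picture was much the same, since that mean was 10.84 in DMSO and 10.86 in αKG on the log2 scale. Ryr2 was 0.25 higher, Hrc 0.20 higher, and Casq1 2.47 higher, and Pln differed by -0.17, each without overlap and at an exact two-sided permutation p of 0.1, adjusted 0.25 over the 10 genes. The value for Ryr2 turned to -0.06 under quantile normalization. The differences were 0.29 for Slc8a1, 0.08 for Atp2a2, 0.09 for Trdn, -0.17 for Jph2, -0.03 for Casq2 and -0.09 for Sln, all with overlap. Without αKG replicate 3 the differences ran from -0.28 for Jph2 to 0.41 for Slc8a1, with Casq1 at 3.02.

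Per kilobase of all annotated exons the 10 genes fell into an order in DMSO. This order depends on the length used, and another length may change it. The annotated exons came to 28790 bases for Ryr2 and 9352 for Trdn. The transcripts with the longest coding sequence held 16814 and 4514. Pln was first with 716 ± 18.5 (SD, n = 3) normalized counts per kb, followed by Atp2a2 with 616 ± 14.2 and Casq2 with 544 ± 6.5, and these were separated by more than their ranges. Hrc (328 ± 12.9), Ryr2 (308 ± 12.3), Jph2 (300 ± 7.77) and Slc8a1 (281 ± 9.77) came next, and each overlapped its neighbour in that order. Trdn (158 ± 6.37), Casq1 (29.6 ± 8.73) and Sln (8.35 ± 2.28) were last and did not overlap. In DMSO, Pln exceeded 99.98% of all genes with a known length, Casq1 61.2% and Sln 41.0%.

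In αKG the mean of Casq1 was 186 ± 96.9 per kb, with 233, 250 and 74.3 in the single libraries. On this measure it was above Trdn in αKG replicates 1 and 2, at 167 and 190 there, and below Trdn at 159 in αKG replicate 3. Pln and Atp2a2 changed places in the same libraries. Atp2a2 was above Pln in αKG replicates 1 and 2, with 691 and 686 beside 605 and 649, and below it in αKG replicate 3, with 608 beside 690. Both crossings depend on the length used and may not hold with another. All annotated exons came to 9352 bases for Trdn and 1951 for Casq1. The transcripts with the longest coding sequence held 4514 and 1847. For Pln and Atp2a2 the exons came to 2759 and 6081 bases, beside 2334 and 5674 in such transcripts.

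**Figure D4:**
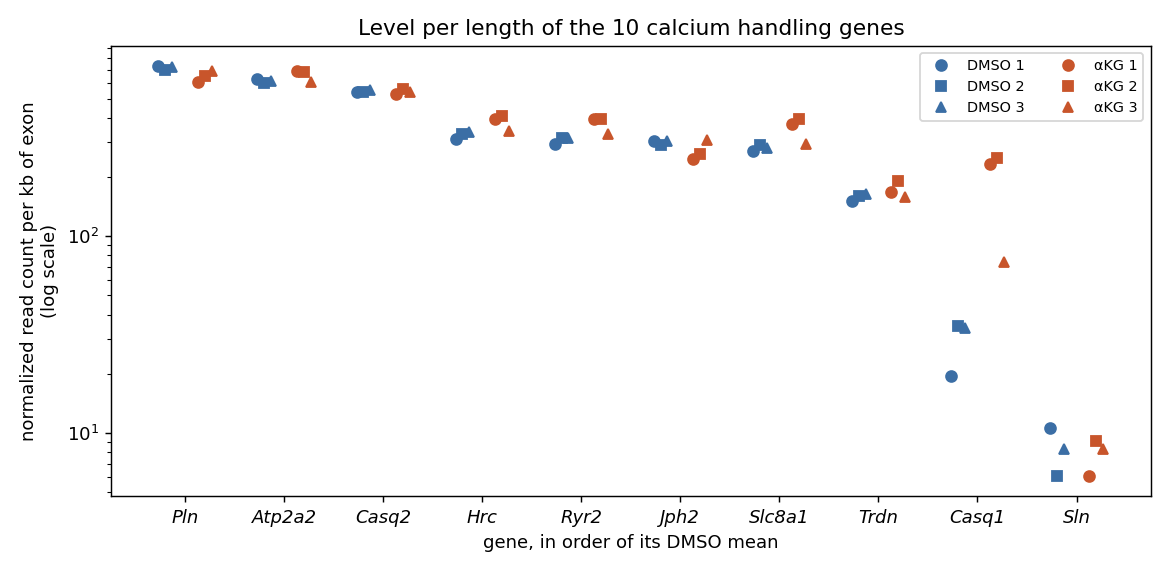
Normalized read count per kb of exon on a log axis, for each gene and library (blue DMSO, orange αKG, the shape gives the replicate number), in order of the DMSO mean. Casq1 moves from 19.5 to 34.9 in DMSO up to 74.3 to 250 in αKG, and Sln stays the lowest gene with 6.07 to 10.6.

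Around the 10 genes stand their partners, which were sorted into lists by function. Of 103 partner genes listed 99 were in the table, and 7 of the 99 were higher and 1 was lower past the threshold, with a median log2 fold change of 0.07. Of all genes 2.83% were higher and 0.952% lower, with a median of 0.04. Without αKG replicate 3 there were 28 higher and 17 lower, beside 37.2% of all genes in either direction. Without 1 of the others there was at most 1 (Sypl2, without DMSO replicate 1), beside 0 to 152 of all genes.

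Among 27 partners of calcium release 4 rose and 1 fell, beside 2.83% and 0.952% of all genes. The list's median was 0.14, against 0.04 over all genes. Ryr3, the third ryanodine receptor, was at 49, 57 and 46 in DMSO and at 216, 204 and 103 in αKG (log2 fold change 1.70 ± 0.26, SE, limma adjusted p = 0.0169, and a log2 fold change of 2.04 without αKG replicate 3). Asph, whose products include junctin, a partner of triadin and calsequestrin, was at 1383, 1475 and 1477 in DMSO and at 1819, 1893 and 1662 in αKG (0.31 ± 0.07, SE, limma adjusted p = 0.0408, and a log2 fold change of 0.36 without αKG replicate 3). In both genes αKG replicate 3 was the lowest of its group and above all DMSO libraries.

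The others that rose were Camk2b and Camk2d, which encode subunits of the calmodulin-dependent kinase that phosphorylates the ryanodine receptor and phospholamban. Camk2b was at 98, 93 and 95 in DMSO and at 163, 133 and 173 in αKG (0.70 ± 0.14, SE, limma adjusted p = 0.0347, and a log2 fold change of 0.62 without αKG replicate 3), and here αKG replicate 3 was the highest library. Camk2d, named after its values were seen, was at 1834, 1906 and 1793 in DMSO and at 2613, 2705 and 2079 in αKG (0.41 ± 0.09, SE, limma adjusted p = 0.0446, and a log2 fold change of 0.53 without αKG replicate 3). Dhrs7c, a dehydrogenase of the sarcoplasmic reticulum membrane, was the gene that fell, from 331, 295 and 303 to 213, 213 and 251 (-0.46 ± 0.10, SE, limma adjusted p = 0.0453, and a log2 fold change of -0.54 without αKG replicate 3). Fkbp1b, which encodes the small protein bound to the cardiac ryanodine receptor, was at 16, 17 and 15 in DMSO and at 17, 22 and 22 in αKG.

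At the surface membrane 2 of 22 listed genes rose and none fell past the threshold, beside 2.83% and 0.952% of all genes. Among them Slc8a2, the second exchanger gene, was at 18, 19 and 24 in DMSO and at 44, 36 and 48 in αKG (1.03 ± 0.24, SE, limma adjusted p = 0.0477, and a log2 fold change of 0.95 without αKG replicate 3). Slc8a2 is a low gene beside Slc8a1, and its αKG replicate 3 was not nearer to DMSO than the others. Cacna1c, the pore of the L-type channel, was at 3711, 3996 and 3970 in DMSO and at 4068, 3532 and 3699 in αKG, with overlap.

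Of 10 store-operated entry genes 1 rose past the threshold, beside 2.83% of all genes. It was Sypl2, which encodes mitsugumin 29, a protein of triad membranes in skeletal muscle, at 17, 21 and 16 in DMSO and 69, 66 and 54 in αKG (1.75 ± 0.22, SE, limma adjusted p = 0.00778, and a log2 fold change of 1.86 without αKG replicate 3). The αKG libraries were close together for this gene. Sypl2 lost its call without DMSO replicate 2 or 3 (limma adjusted p = 0.12 and 0.104) and without αKG replicate 1 or 2 (0.203 and 0.255). Ryr3, Asph, Camk2b, Camk2d, Dhrs7c and Slc8a2 each lost theirs without any one of the DMSO libraries and without αKG replicate 1 or 2, where their limma adjusted p-values were between 0.0906 and 0.271. With those libraries left out, 0 to 152 of all genes passed.

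None of the 10 listed pump regulators, 10 luminal proteins, 10 mitochondrial uptake genes or 10 transverse tubule genes passed the adjusted threshold in limma, with 3, 1, 2 and 4 of them at an unadjusted p under 0.05, beside 28.1% of all genes. Srl, which encodes the luminal protein sarcalumenin and had the highest mean of the luminal list, was at 2649, 2591 and 2689 in DMSO and at 2832, 2919 and 2846 in αKG. These groups did not overlap, and the log2 fold change was 0.12 ± 0.05 (SE; limma adjusted p = 0.149, and 0.0272 without αKG replicate 3). Ank2, which encodes the anchor of the exchanger, was at 1798, 1814 and 1844 in DMSO and at 2501, 2271 and 1877 in αKG (0.28 ± 0.09, SE, limma adjusted p = 0.101, and 0.0021 without αKG replicate 3).

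**Figure D5:**
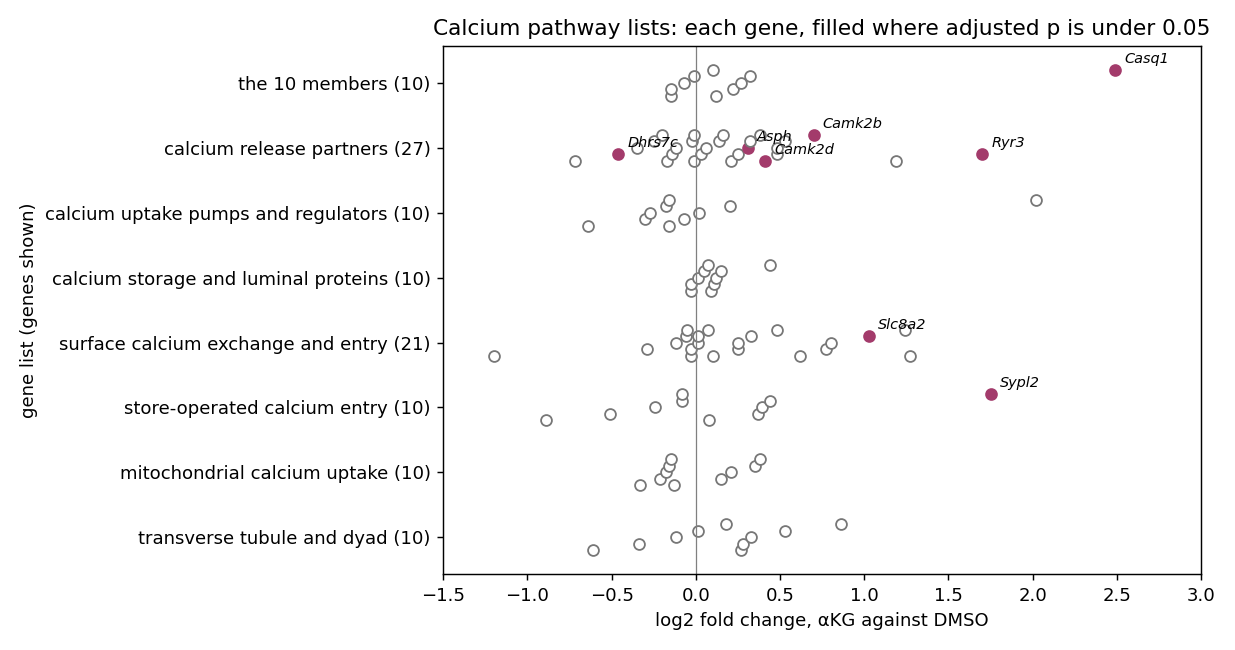
Each circle is 1 gene, placed by its log2 fold change (αKG against DMSO) in the row of its list, with the number of genes shown in brackets; filled circles passed an adjusted p of 0.05 in limma. Among the filled circles Casq1 (2.49), Sypl2 (1.75) and Ryr3 (1.70) lie farthest right, and Dhrs7c (-0.46) is the filled circle left of 0.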

How the data were processed

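Total RNA of 6 cultures, 3 per group, was sequenced from stranded libraries. Per the submitters' processing notes and the study's methods, the authors checked reads with FastQC 0.11.8, trimmed them with Trimmomatic 0.39, aligned them with STAR 2.7.10a to mm10 (GRCm38.p5), counted exonic reads per gene with featureCounts 2.0.3 leaving out ambiguous and multimapping reads, and tested with DESeq2 1.30.1. Picard 2.27.1 is named too. The deposited values, named a score here, are reads that the authors scaled with 1 size factor for each library and then rounded, so they are not counts, and DESeq2 and edgeR were not run on them. The steps between values gave the value of 1 read (0.9259 to 1.119) and from it the estimated reads, 3726069 to 4427908 per library. The step estimate was tested on simulated data, where 9 of 10 factors came within 0.3%. The reads carry no molecular identifiers, so PCR copies are included and depth covers counting error only.

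All 6 libraries entered 1 limma 3.58.1 model (R 4.3.3) of log2(value + 1) with a variance trend, treatment as its only term, no filter, and Benjamini-Hochberg adjustment over 20066 genes at 0.05. The pseudocount understates changes of low genes. The table holds genes that reach a value of 2 in some library. Ratios within a library and values relative to 12 cardiomyocyte markers were compared by exact two-sided permutation over libraries in Python 3.11.15. Exon lengths, GC content and coding sequences came from GENCODE M21, with identical positions for 99.0% of genes, and promoters from RefSeq (GRCm38.p6), matched for 7 of the 10 genes.

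The 10 genes, the partner and marker lists and the rule for naming genes were chosen with earlier results of these data known. Named partners are, per list, up to 3 called genes a direction by smallest p and the gene with the highest mean, plus a fixed set (Ryr1, Ryr3, Atp2a1, Fkbp1b, Asph, Srl, Strit1 and Cacna1c). A partner counted in its list is not reported here by name. For a called gene the 3 most correlated genes with a mean of at least 100 were named. Alternatives were other pseudocounts, a mean filter of 10, no variance trend, other scalings, a correction by splines for GC content and length, a replicate block, limma-voom on estimated reads with TMM scaling, DMSO replicates 2 and 3 averaged, and leaving out each library.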

Additional observations from a re-analysis of the deposited data

How the results depend on the processing

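The count over all genes, 759, and the count among the 10 calcium genes, 1, moved with the processing. Genes past the threshold numbered 346 with a pseudocount of 0.1, 27 without the variance trend, 354 by limma-voom on estimated reads, 1239 after the GC and length correction and 10 with DMSO replicates 2 and 3 averaged; 5648 had an unadjusted p under 0.05. Among the calcium genes the count was 0 without the variance trend, by limma-voom and after averaging DMSO replicates 2 and 3 (1, 5 and 4 at an unadjusted p under 0.05), 3 after the GC and length correction and 5 by unadjusted p. Leaving out 1 library gave 0 to 7466 genes and 0 to 7 calcium genes. Libraries with the same replicate number did not deviate together (correlations of -0.074, 0.136 and 0.002). With 3 libraries a group and αKG replicate 3 set apart, these correlations cannot settle whether the numbers pair the libraries. With the replicate number as a block 46 genes and 0 calcium genes passed (4 at an unadjusted p under 0.05), and with GC and length correction and the block 1703 and 3. Directions turned under quantile normalization, which moved the median of all genes from 0.04 to -0.06, for Ryr2 (-0.12), Atp2a2 (-0.08), Akap6 (-0.04), Tmem38a (0.01), Fkbp1b (-0.09), Sln to Pln (-0.29), Ryr2 to Atp2a2 (-0.04), and against cardiomyocyte markers Ryr2 (-0.06) and Atp2a2 (-0.02). With the GC and length correction they turned for Slc8a1 (-0.07), Trdn (-0.39), Akap6 (-0.06), Ank2 (-0.04), Slc8a1 to Atp2a2 (-0.11), Ryr2 to Atp2a2 (-0.03), and against the markers Slc8a1 (-0.04) and Trdn (-0.36). The first 4 turned with the block too. Sln to Pln turned with DMSO replicates 2 and 3 averaged (-0.004). With 1 library left out the ranges that crossed 0 were -0.26 to 0.11 for Sln, -0.03 to 0.009 for Casq2, -0.04 to 0.02 for Tmem38a, -0.09 to 0.24 for Sln to Pln, -0.35 to 0.02 for Sln to Atp2a2 and -0.28 to 0.08 for Sln against the markers. The cause was not tested. Of 170 values of the 10 calcium genes under the alternatives, 144 kept both direction and side of the threshold. Leaving out a library that leaves 2 in a group assumes that group varies like the other. At 8 to 14 counts, Sln is limited by depth.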

Other observations

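Genes around Casq1 were read as well, and not every one is reported here by name. Of the 8 listed within 100 kb, 2 were higher and 0 lower past the threshold, beside 2.83% and 0.952% of all genes. Pea15a, a small cytoplasmic adaptor gene 3.1 kb from Casq1, was higher in αKG past the threshold. It was at 475, 438 and 411 in DMSO and at 629, 699 and 581 in αKG (log2 fold change 0.53 ± 0.09, SE, limma adjusted p = 0.027). With αKG replicate 1 or 2 left out, 0 of all genes passed, so the Pea15a call was lost there. Igsf8, 41.8 kb away, was at 60, 54 and 48 in DMSO and at 89, 79 and 79 in αKG (0.60 ± 0.16, SE, limma adjusted p = 0.066). Dcaf8, Pex19 and Copa, 12.9, 73.4 and 87.6 kb away, had log2 fold changes of -0.09, -0.2 and 0.06. Their limma adjusted p-values were 0.325, 0.274 and 0.616. The testis sodium pump gene Atp1a4, 3.6 kb from Casq1, was at 2, 0 and 1 in DMSO and at 1, 2 and 4 in αKG. Gm17224, an antisense gene that shares exon sequence with Casq1 on the other strand, was at 6, 11 and 9 in DMSO and at 8, 4 and 5 in αKG, far below Casq1 in the αKG libraries. These neighbours were looked at after the Casq1 values were seen.

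Other loci within the spans of the calcium genes were also read, some inside introns and some sharing exon sequence on the other strand. In Ryr2, which spans 553.8 kb, the same-strand locus Gm47493 was at 143, 192 and 172 in DMSO and at 675, 609 and 218 in αKG (log2 fold change 1.41 ± 0.35, SE, limma adjusted p = 0.0552). Gm47494, also within Ryr2, was at 58, 51 and 44 in DMSO and at 166, 160 and 63 in αKG (1.21 ± 0.33, SE, limma adjusted p = 0.0665). In Atp2a2 the locus Gm43359 was at 232, 267 and 259 in DMSO and at 498, 443 and 258 in αKG (0.61 ± 0.21, SE, limma adjusted p = 0.105). For these 3 loci αKG replicates 1 and 2 were above all DMSO libraries and αKG replicate 3 was the αKG library nearest to DMSO, within the DMSO range for Gm43359. The log2 fold changes of the other listed loci ran from -0.55 for Gm17224, in Casq1, to 1.66 for Gm47831, a low locus in Trdn. They were 0.27 and 0.29 for Gm43244 and 4632404M16Rik in Casq2, -0.08 for Gm26956 in Ryr2 and -0.03 for Gm47644 in Pln. Reads of such loci and of unspliced host RNA cannot be told apart in this table.

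The genes whose log2 values followed Casq1 most closely over the 6 libraries were Clip1 (Pearson r = 0.998), Syne1 (0.997) and Cep44 (0.997). The points of 1 group share a treatment, so these values are a description. Clip1 was at 1415, 1548 and 1527 in DMSO and at 2187, 2203 and 1809 in αKG, and Syne1 at 2123, 2277 and 2256 in DMSO and at 3174, 3153 and 2578 in αKG. Like Casq1, both were lowest in DMSO replicate 1 among the DMSO libraries and lowest in αKG replicate 3 among the αKG libraries.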
